A study of Mus musculus with 15 samples.

Results

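Gp2, the mucin genes Muc1, Muc4, Muc13 and Muc20, the trefoil factor genes Tff1, Tff2 and Tff3, and Agr2 encode products of secretory epithelia. They were read as the 13 probes whose gene name on the array was one of these 9, out of 55681 probes and 23999 named genes. The genes were selected on their measured levels in these same tumors, so their levels are described here without a p-value. Where a difference is said to pass or miss the thresholds used across all genes (an adjusted p below 0.05 in limma and a change above 2-fold), that describes these readings and supports nothing about the genes. Of the 9 genes, 7 were measured well enough to enter the comparisons across all genes, which required a probe well above background in at least 3 of the compared tumors. Muc1 and Agr2 did not reach that limit.

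RNA of 15 whole liver tumors was hybridised, 1 tumor per array. All tumors came from mice that received 0.5 µl CCl4 per g body weight, a hepatotoxin, intraperitoneally in olive oil every 3 days for 16 weeks, as the labels give it. The first group held 5 hepatocellular carcinomas (HCC) of p53f/f mice, which carry a floxed Trp53 gene and served as controls; these tumors came from 4 mice, since mouse 3717 gave 2. The second group held 5 HCC of p53LKO mice, in which Trp53 was deleted in the liver, and the third held 5 intrahepatic cholangiocarcinomas (ICC) of p53LKO mice. Mice 3731, 3733, 3976 and 5283 each gave an HCC and an ICC. The study's methods give a C57/BL6J background and a legend gives male mice for the HCC, while the sex of the mice with ICC, the age of each mouse and the Cre driver were not given in the sources used here. No ICC of p53f/f mice was hybridised, so the comparison of ICC with p53f/f HCC differs in genotype and in tumor type together. In bulk tumor RNA, fewer cells of a type and less RNA per cell cannot be told apart.

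Mucins are long glycoproteins whose dense O-linked sugar chains coat epithelial surfaces, either secreted as gels or, like Muc1, Muc4, Muc13 and Muc20, anchored in the membrane. Trefoil factors are small secreted peptides stored with mucins and known for their part in mucosal repair, and Agr2 is an endoplasmic reticulum disulfide isomerase needed for mucin folding. Gp2 is a glycosylphosphatidylinositol-anchored zona pellucida domain protein, known from the zymogen granules of the pancreatic acinar cell and as a receptor for bacteria on intestinal M cells. Normal bile duct epithelium carries membrane mucins and trefoil factors, whereas hepatocytes carry little of either.

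The Gp2 reading rests on 2 separate 60-base probes, both on the minus strand of chromosome 7, and the Tff2 reading on 1. Shown, as in the array design and 5′ to 3′, are a Gp2 probe whose first reading frame holds no stop codon and the Tff2 probe, which holds none in any of the 3 frames. The Gp2 probe lies at chr7:126590632-126590691 (mm9), and the array gives no position for the Tff2 probe.
Gp2: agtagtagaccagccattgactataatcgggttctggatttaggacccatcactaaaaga
Tff2: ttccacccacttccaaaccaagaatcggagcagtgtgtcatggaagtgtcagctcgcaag
The other Gp2 probe, at chr7:126586058-126586117, gave the higher signal and stands for the gene below. The 2 Tff1 probes, at chr17:31298341-31298400 and chr17:31298346-31298405, share 55 bases and are not separate readings.

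The promoters of the 3 genes that were high in ICC are shown for the 100 bases before the RefSeq transcription start on GRCm38.p6, a later build than that of the probes. Capitals mark 3 short motifs, searched on both strands in the 250 bases before the start: TATAAA, the core of the element that places RNA polymerase II, then CCAAT, which the factor NF-Y binds, and GTTAAT, which is part of an HNF1 site. None of the marked matches overlap.
Gp2, chr7:119459273-119459372, minus strand: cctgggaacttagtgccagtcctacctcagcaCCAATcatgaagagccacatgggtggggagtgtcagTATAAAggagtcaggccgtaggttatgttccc
Muc4, chr16:32735786-32735885, plus strand: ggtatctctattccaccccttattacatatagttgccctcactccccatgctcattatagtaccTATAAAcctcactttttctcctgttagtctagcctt
Muc13, second start, chr16:33794389-33794488, plus strand: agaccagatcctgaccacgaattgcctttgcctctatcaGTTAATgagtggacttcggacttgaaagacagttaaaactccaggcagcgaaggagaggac
TATAAA began 32 bases before the start of Gp2, 36 before that of Muc4 and 31 before that of Muc1, and 12.4% of 32851 such windows held one. The Gp2 window also held CCAAT 68 bases before the start, a motif found in 33.9% of windows and also held by those of Muc1 and Agr2, 156 and 65 bases before the start. GTTAAT of Muc13 lay 61 bases before its second start, against 6.43% of windows, and the window of its first start held none of the 3 motifs. A forkhead core, TGTTTAC, and an ETS core, GAGGAA, were also searched. Neither was found in the windows of Gp2, Muc4 or Muc13, while 3.17% and 23.3% of all windows held one.

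Levels below are log2 signals relative to the 75th percentile of the same array, so a difference of 1 is a doubling, and values of different probes are not set against each other. Gp2 separated the ICC from every HCC. In p53f/f HCC the level was -5.25, -4.14, -4.32, -5.79 and -4.96 in mice 3681, 3715 and 3716 and tumors 1 and 2 of mouse 3717. In p53LKO HCC it was -4.80, -3.01, -2.98, -4.26 and -2.14 in mice 3976, 5283, 3731, 3733 and 3975. In ICC it was 8.21, 8.91, 8.10, 8.11 and 8.82 in mice 3731, 3733, 3976, 3977 and 5283. The ICC lay within a range of less than 1 log2 unit, and no HCC of either genotype came near them. Gp2 was well above background in 0 of 5 p53f/f HCC, 3 of 5 p53LKO HCC and 5 of 5 ICC. That mark is set on each array, and the level it takes differs between arrays. The p53LKO HCC of mouse 5283 missed it at -3.01, and that of mouse 3733 met it at -4.26. The mean was 8.43 ± 0.40 (SD, n = 5) in ICC and -3.44 ± 1.07 (SD, n = 5) in p53LKO HCC, a difference of 11.87 (SE 0.45) or 3741-fold, with 2 of the 5 HCC readings at background. Against p53f/f HCC, where the probe was at background, ICC was at least 7203-fold higher, a bound set by the dimmest probes well above background on the control arrays. These sizes depend on the background correction: after normexp correction the differences were 10.02 against p53LKO HCC and 10.25 against p53f/f HCC, the latter below the bound. The second Gp2 probe gave 6.24, 7.14, 5.82, 5.99 and 7.59 in the same ICC, at least 1963-fold above p53f/f HCC. It was well above background in 1 of the 10 HCC, the p53LKO tumor of mouse 3975, which was also the highest HCC on the first probe.

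**Figure D1:**
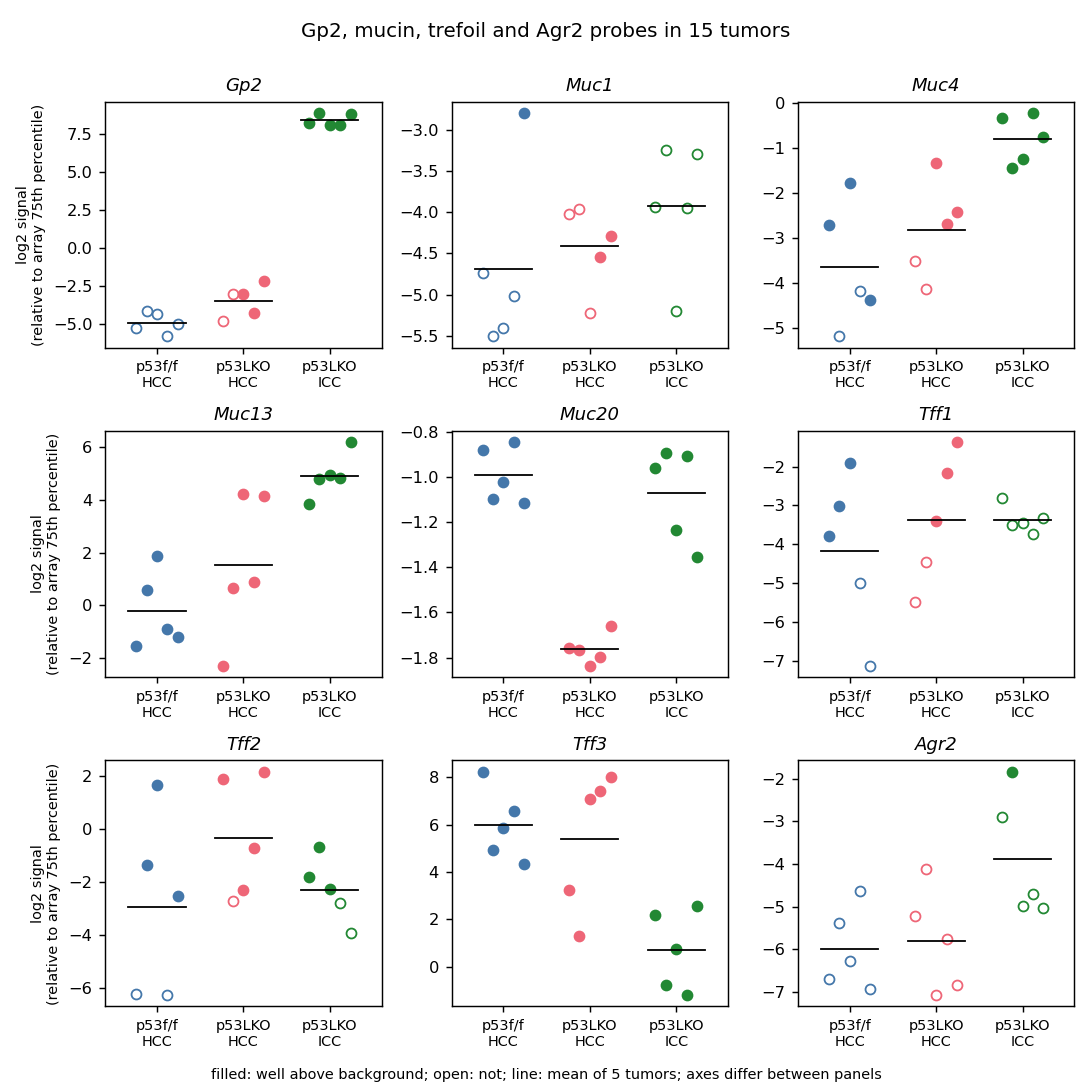
Level of each of the 9 genes in the 15 tumors, 1 panel per gene, as log2 signal relative to the 75th percentile of the array; points are tumors, filled where the probe was well above background, and lines are means of 5 tumors. The Gp2 points of the ICC stand between 8.10 and 8.91, while the Muc1 and Agr2 panels hold mostly open points.

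Between the HCC of the 2 genotypes, Gp2 was dim on both sides. The means were -3.44 ± 1.07 in p53LKO and -4.89 ± 0.68 in p53f/f tumors (SD, n = 5 each), the groups overlapped, and the difference of 1.45 (SE 0.50) amounts to a bound of at least 1.93-fold. It passed the thresholds only narrowly. Leaving out p53LKO mouse 5283, p53f/f mouse 3681 or either tumor of mouse 3717 took it below them, and without p53LKO mouse 3731, 3733 or 3975 the probe was well above background in too few tumors to enter the fit. Over the settings in which it was fitted the difference ran from 0.23 to 1.86.

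Muc13, a membrane mucin of the gut surface, was well above background in all 15 tumors. Its level was -1.53, 0.59, 1.87, -0.89 and -1.21 in the p53f/f HCC, -2.30, 0.67, 4.23, 0.89 and 4.15 in the p53LKO HCC and 3.85, 4.81, 4.96, 4.84 and 6.20 in the ICC, with the mice in the order given for Gp2. All ICC lay above all p53f/f HCC, whereas the p53LKO HCC of mice 3731 and 3975 reached into the range of the ICC. The ICC mean of 4.93 ± 0.84 exceeded that of p53f/f HCC, -0.23 ± 1.43, by 5.16 (SE 0.65), or 35.9-fold, and that of p53LKO HCC, 1.53 ± 2.74, by 3.40 (SE 1.10), or 10.6-fold (SD, n = 5 each). The difference from p53LKO HCC was 1.84 without the HCC of mice 3976 and 5283, the only ones on the lower row of their slide, and then no longer passed the thresholds. It was 2.44 without the HCC of mouse 3976 alone, where it still passed. It fell short without the HCC of mouse 5283 (3.19), the HCC of mouse 3733 (3.24) or the ICC of mouse 5283 (3.08), and, at an unchanged difference, with no filter on dim probes and with the methods' t-test.

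Muc4, a large mucin that also binds the ErbB2 receptor, was measured by 2 probes. Only the brighter had a higher mean in ICC than in both HCC groups. On the brighter probe the level was -2.71, -5.18, -1.77, -4.17 and -4.36 in the p53f/f HCC, -3.51, -4.14, -1.33, -2.67 and -2.41 in the p53LKO HCC and -0.33, -1.44, -1.24, -0.21 and -0.74 in the ICC. It was well above background in 3 tumors of each HCC group and in all 5 ICC. All ICC stood above all p53f/f HCC, and 4 of the 5 ICC above all p53LKO HCC, of which the tumor of mouse 3731 overlapped them. The mean difference was 2.85 (SE 0.58), or 7.19-fold, against p53f/f HCC and 2.02 (SE 0.48), or 4.05-fold, against p53LKO HCC. After normexp correction these differences were 1.21 and 1.09, and with both probes averaged the first was 1.24. The difference from p53LKO HCC was 1.34 without the HCC of mice 3976 and 5283 and 1.23 within slide 2. Those 2 HCC were at background, so among the lower-row arrays and within slide 1 only bounds can be given, of at least 1.87 and at least 2.33. The dimmer probe, which the array places in another segment of the gene at chr16:32774896-32774955, was well above background in none of the 5 ICC and in 6 of the 10 HCC. Its mean was -4.22 in ICC, -4.44 in p53LKO HCC and -3.86 in p53f/f HCC. Counts of detected tumors also depend on the array. On this probe the ICC of mouse 3733 was not well above background at -3.23. The p53LKO HCC of mouse 3731 was so at -4.67. The higher Muc4 level of the ICC was thus read on 1 of its 2 probes.

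Muc20, a mucin that binds the receptor Met, had a narrow range in each group and was well above background in all 15 tumors. Its level lay between -1.12 and -0.84 in p53f/f HCC, between -1.84 and -1.66 in p53LKO HCC and between -1.35 and -0.89 in ICC. The p53LKO HCC stood below both other groups without overlap, and p53f/f HCC and ICC overlapped. The p53LKO HCC were lower than p53f/f HCC by 1.71-fold (difference -0.77, SE 0.13), and the ICC were higher than p53LKO HCC by 1.62-fold (0.69, SE 0.15), both short of 2-fold. With arrays scaled to the probes well above background on all of them, these differences became -1.02 and 1.06 and passed 2-fold. The second Muc20 probe was not well above background on any array. Muc1, the widely expressed membrane mucin, was well above background in 1 p53f/f HCC, 2 p53LKO HCC and 0 ICC, so no fold against ICC is given.

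The trefoil factor genes form a cluster on chromosome 17, and the 3 differed in pattern. Tff3, the intestinal trefoil factor, was well above background in all 15 tumors and was low in the ICC, where Gp2 was high. Its level was 8.24, 4.92, 5.85, 6.57 and 4.32 in the p53f/f HCC, 3.22, 1.28, 7.08, 7.42 and 7.99 in the p53LKO HCC and 2.16, -0.78, 0.76, -1.20 and 2.58 in the ICC. Every ICC was below every p53f/f HCC, while the p53LKO HCC split, with mice 3731, 3733 and 3975 at or above 7.08 and mice 3976 and 5283 at 3.22 and 1.28. The tumor of mouse 5283 fell inside the range of the ICC. The ICC mean, 0.70 ± 1.69, was below that of p53f/f HCC, 5.98 ± 1.53, by 38.8-fold (difference -5.28, SE 0.88), and below that of p53LKO HCC, 5.40 ± 2.97, by 25.9-fold (-4.70, SE 1.31; SD, n = 5 each).

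The 2 low p53LKO HCC were those on the lower row of their slide, as all ICC were, and 46.4% and 37.0% of probes were well above background on them. Without them the Tff3 difference between ICC and p53LKO HCC was -6.79, and with the row as a block, which compares lower-row arrays with each other, it was -1.55 and no longer passed the thresholds. Within slide 1 (1 ICC, 2 HCC) it was -0.09, and within slide 2 (4 ICC, 3 HCC) -7.16. For Muc13 the same values were 5.75 with the row as a block, 4.66 in slide 1 and 2.11 in slide 2. Gp2 was at background in both lower-row HCC, which are also the slide 1 HCC, so there only a bound can be given, of at least 11.09 in the lower row and at least 10.87 in slide 1, beside a difference of 11.61 in slide 2. Between ICC and p53f/f HCC the Tff3 difference was -4.11 with slide as a block, -4.23 in slide 1 and -3.98 in slide 2. All p53f/f HCC were on upper rows, so against them the tumor type, the genotype and the row of the ICC cannot be told apart. Between the HCC genotypes, Tff3 differed by -0.58 (SE 1.28), with -4.14 in slide 1 (2 p53LKO, 4 p53f/f) and 3.18 in slide 2 (3 p53LKO, 1 p53f/f). The Muc13 difference between them, 1.76 (SE 1.18), likewise turned between slides, with -0.83 in slide 1 and 4.30 in slide 2. The p53LKO HCC of slide 1 were those of the lower row, so slide and row cannot be told apart here. Within the upper row the differences were 1.52 for Tff3 and 3.32 for Muc13.

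Tff2, the spasmolytic peptide of gastric mucous neck cells, scattered widely inside each group. Its level was -6.23, -1.37, 1.67, -6.27 and -2.54 in the p53f/f HCC, 1.89, -2.73, -2.30, -0.72 and 2.16 in the p53LKO HCC and -1.81, -0.68, -2.26, -2.79 and -3.94 in the ICC. All 3 groups overlapped, and the largest difference, 2.61 (SE 1.56) between p53LKO HCC and p53f/f HCC, was below the SD of the p53f/f HCC, 3.38. Tff1, the gastric trefoil factor, was well above background in 3 p53f/f HCC, 3 p53LKO HCC and 0 ICC on its brighter probe, and differed by 0.79 (SE 1.00) between the HCC genotypes. With the row as a block it passed the thresholds between ICC and p53LKO HCC, but none of the 5 ICC and neither lower-row HCC was well above background there, so that fit compares background readings. Agr2 was well above background in 1 tumor, the ICC of mouse 3733, at -1.83.

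**Figure D2:**
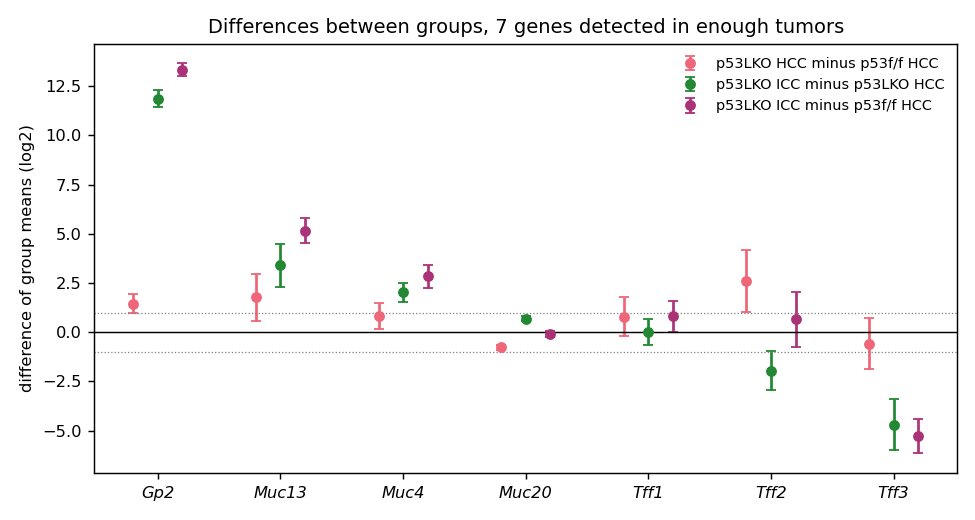
Difference of group means in log2 for the 7 genes that entered the comparisons, in each of the 3 comparisons; bars are standard errors from limma, dotted lines mark 2-fold, and Gp2 values against p53f/f HCC and Tff1 values of ICC involve readings at background. Gp2, Muc13 and Muc4 are above 0 and Tff3 is below 0 in both comparisons that involve ICC.

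The 4 p53LKO mice that gave both tumor types allow a comparison inside the animal. Gp2 was higher in the ICC than in the HCC of the same mouse by 11.19 and 13.17 in mice 3731 and 3733, and by at least 11.29 and 10.95 in mice 3976 and 5283, whose HCC were at background. Muc4 was higher by 1.00 and 1.24 in mice 3731 and 3733 and, with the HCC again at background, by at least 1.95 and 1.39 in mice 3976 and 5283. Muc20 was higher by 0.88, 0.91, 0.52 and 0.41 in the 4 mice. Muc13 was higher in 3 mice, by 3.91, 7.26 and 5.53, and differed by -0.38 in mouse 3731. Tff3 was lower by 4.91, 8.21 and 2.46 in mice 3731, 3733 and 3976 and higher by 1.29 in mouse 5283, so its direction did not hold in every animal. With the mouse as a block, the Tff3 difference was -3.57 and no longer passed the thresholds.

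**Figure D3:**
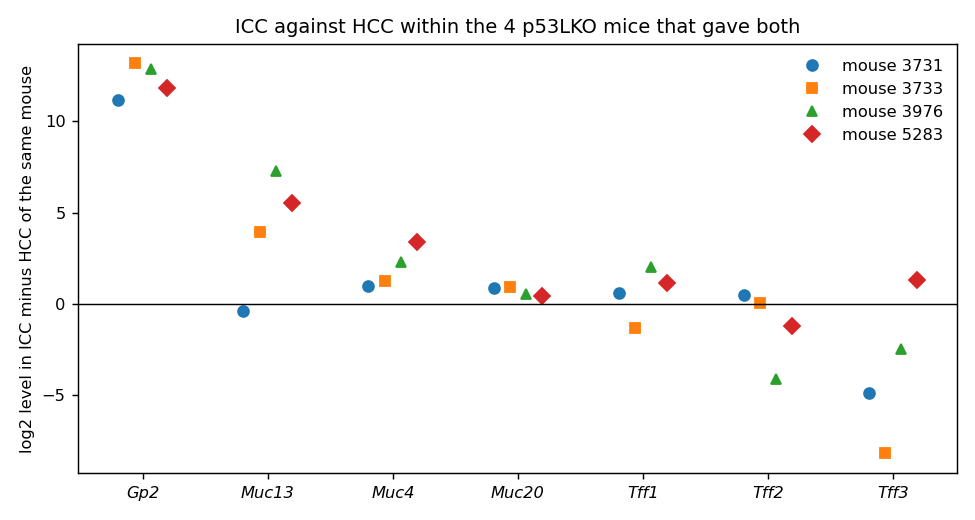
Log2 level in the ICC minus that in the HCC of the same p53LKO mouse, for 7 genes and 4 mice, plotted as read, so that Gp2 and Muc4 of mice 3976 and 5283 are differences from background readings. The Gp2 points lie between 11.19 and 13.17, the Muc4 and Muc20 points are all above 0, and Tff3 is above 0 in mouse 5283 alone.

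Counted over the 7 genes that entered each comparison, p53LKO HCC against p53f/f HCC had 1 gene higher (Gp2) and 0 lower, where 5.22% of all genes were higher and 10.7% lower. The groups did not overlap for 1 of the 7 (Muc20), against 19.3% of all genes. For ICC against p53LKO HCC, 3 were higher (Gp2, Muc13 and Muc4) and 1 lower (Tff3), where 13.1% of all genes were higher and 15.2% lower, and groups did not overlap for 2 of the 7 (Gp2 and Muc20), against 30.9%. For ICC against p53f/f HCC the same 3 were higher and Tff3 lower, where 10.9% of all genes were higher and 11.9% lower, and groups did not overlap for 4 of the 7 (Gp2, Muc13, Muc4 and Tff3), against 27.4%. Since the genes were selected on these readings, nothing is read from their counts. The last 2 comparisons share the ICC and are not independent. The median difference of the 7 genes was 0.83, 0.69 and 0.81 in the 3 comparisons, beside 0.07, -0.18 and -0.17 over all genes tested.

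The genes around these were read from lists of related function, tested in the same limma fits with Benjamini-Hochberg adjustment over all probes. A gene given with a bound, or well above background in fewer than 3 tumors of 1 group, entered the fit through the other group. Its p-value then adds nothing to its readings. The bounds hold for this background correction only. Among 9 other zona pellucida domain and related genes, no more than 3 could be tested. Of these, 2 were higher in ICC than in either HCC group, beside 13.1% and 10.9% of all genes. Those 2, Umod and Dmbt1, entered both comparisons only through the ICC, so nothing is read from this count. Umod, which encodes the kidney protein uromodulin and is the next gene to Gp2 on chromosome 7, was 4.20 ± 1.22 in ICC and at background in p53LKO HCC, at least 302-fold higher in ICC (limma adjusted p = 7.1e-06). Dmbt1, a scavenger receptor of mucosal surfaces, was 5.67 ± 0.75 in ICC and at background in all 10 HCC, at least 834-fold higher in ICC than in p53LKO HCC (limma adjusted p = 3.8e-06) and at least 1064-fold higher than in p53f/f HCC (limma adjusted p = 2.3e-08). After normexp correction the differences were 6.39 for Umod and 7.75 and 7.66 for Dmbt1 on the log2 scale, below these bounds. The third, Oit3, differed by -1.47 between ICC and p53LKO HCC (adjusted p = 0.27 by limma).

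The 2 nearest tested genes on each side of the members were read in the same way, 24 genes in all. In ICC, 5 were higher and 2 lower than in p53LKO HCC, beside 13.1% and 15.2% of all genes. The higher ones were Umod, described above, then Thbs3 and Trim46, both beside Muc1 (differences of 2.80 and 2.18; limma adjusted p = 0.00075 and 0.022), and 9130015A21Rik and Ahr, the dioxin receptor gene, beside Agr2 (at least 21.8-fold, and a difference of 2.05; limma adjusted p = 0.00019 and 0.0021). The lower ones were Umps beside Muc13 and Tfrc, the transferrin receptor gene, in the segment that holds Muc4 and Muc20 (-1.71 and -1.16; limma adjusted p = 3.6e-05 and 0.012). Between the HCC genotypes, Tfrc, its neighbour Tnk2, and Heg1 beside Muc13 were higher in p53LKO tumors by 1.49, 1.12 and 1.40 (limma adjusted p = 0.0022, 0.0047 and 0.00036), and Gm5434 beside Agr2 was lower (-1.51, limma adjusted p = 0.0033). Gpr139, on the other side of Gp2 from Umod, was lower in p53LKO HCC than in p53f/f HCC (-1.74, limma adjusted p = 8.7e-05). It was well above background in no ICC. Next on either side of Gp2, Gprc5b and Pdilt passed in none of the 3 comparisons. Against p53f/f HCC, 6 of the 24 were higher in ICC and 2 lower, beside 10.9% and 11.9% of all genes. The higher ones were Umod, Thbs3, Trim46, Heg1, 9130015A21Rik and Ahr, and the lower ones were Gpr139, for which no bound can be given, and Glp1r beside the trefoil genes, at least 1.23-fold lower (limma adjusted p = 0.015 and 0.012). Mtx1, Krtcap2, Rubcn, Fyttd1, Slc12a8, Itgb5, Abcg1, Tmprss3, Ubash3a and Tspan13 passed in none.

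Of the M cell markers, 4 of 7 tested were higher in ICC than in p53LKO HCC and 6 of 7 than in p53f/f HCC, with none lower, where 13.1% and 10.9% of all genes were higher. Spib, a transcription factor required for M cell maturation and also active in B cells, was 6.39 ± 0.51 in ICC against -1.88 ± 0.68 in p53LKO HCC, 308-fold (limma adjusted p = 7.3e-07). Pglyrp1, a peptidoglycan-binding protein, was 24.7-fold higher and the chemokine gene Ccl9 3.58-fold higher (limma adjusted p = 2.4e-05 and 0.00035). Ccl20 was not well above background in any tumor. The summed level of the 8 markers, on the log2 scale, was 7.99 to 9.0 in ICC, 6.63 to 7.34 in p53LKO HCC and 6.37 to 6.76 in p53f/f HCC. Of 8 leukocyte markers, 3 were higher in ICC than in p53LKO HCC, and the summed level of the 8 was 5.87 to 7.22 in ICC, 5.57 to 5.88 in p53LKO HCC and 6.35 to 7.42 in p53f/f HCC, where Spib was -1.62 ± 0.81. Their part in the Spib level was not tested.

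Of 13 pancreatic acinar markers tested, 1 was higher and 3 were lower in ICC than in p53LKO HCC, where 13.1% and 15.2% of all genes were. Of 16 tested, 1 was higher and 6 were lower than in p53f/f HCC, beside 10.9% and 11.9% of all genes. Against p53LKO HCC, Rnase1, a secreted ribonuclease, was 9.97-fold higher in ICC (limma adjusted p = 9.0e-05). In the same comparison the elastase gene Cela1 was 30.5-fold lower and Bhlha15, a transcription factor of secretory cells, 8.36-fold lower (limma adjusted p = 5.3e-05 and 0.0039). Ptf1a, Prss2 and Pnliprp2 were not well above background in any tumor, and Cpa1, Cpb1 and Pnlip in no ICC. The summed level of the 25 markers was 2.79 to 4.42 in ICC, 3.96 to 5.82 in p53LKO HCC and 4.27 to 7.19 in p53f/f HCC.

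**Figure D4:**
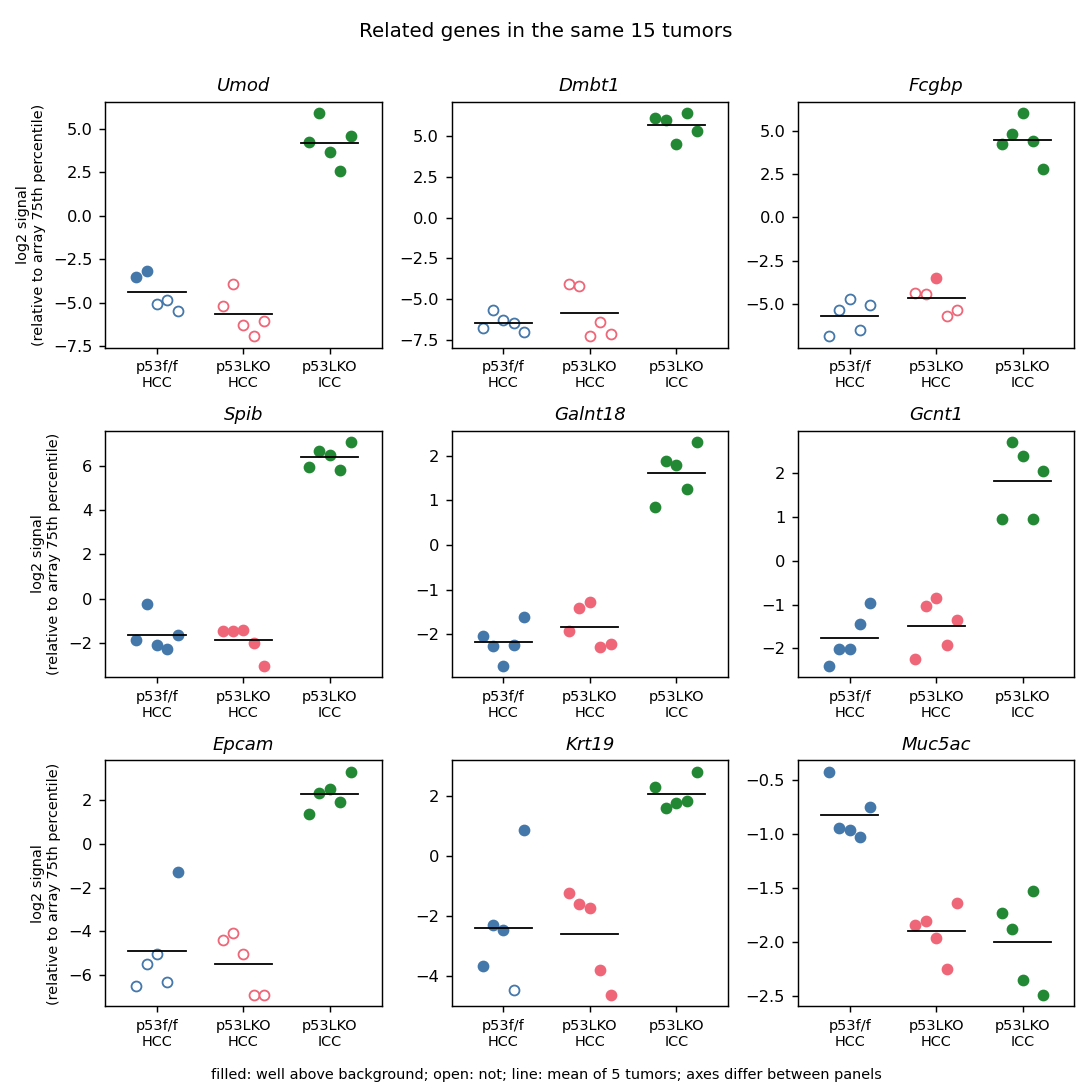
Level of 9 genes of the related lists in the same 15 tumors, as log2 signal relative to the 75th percentile of the array; points are tumors, filled where the probe was well above background, and lines are means of 5 tumors. The ICC stand apart for Umod, Dmbt1, Fcgbp and Spib, and Muc5ac is highest in p53f/f HCC.

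Of the gel mucin genes, Muc5ac and Muc5b were lower in p53LKO tumors of both types than in p53f/f HCC, though not under every setting. Of 9 other mucin genes on the array, 3 were tested and none was higher in any comparison. In both p53LKO groups 2 were lower than in p53f/f HCC, beside 10.7% of all genes for the HCC and 11.9% for the ICC. Muc5ac, the gastric gel mucin, was 2.11-fold lower in p53LKO HCC and 2.26-fold lower in ICC than in p53f/f HCC (limma adjusted p = 0.0012 and 0.0031). Muc5b, the airway gel mucin, was 2.57-fold lower in p53LKO HCC and at least 1.35-fold lower in ICC (limma adjusted p = 0.0011 and 0.027). After normexp background correction neither gene passed the thresholds in either comparison, with differences between -0.70 and -0.50, and after quantile normalization neither passed between the HCC genotypes. Muc5ac also fell short between the HCC genotypes without p53LKO mouse 3733 (-0.99) or p53f/f mouse 3681 (-0.98). Muc5b in ICC fell short in 7 of the 19 settings in which it was fitted, among them without the ICC of mouse 3976 (-0.82) or 5283 (-0.93). Muc2, the main intestinal gel mucin, was not well above background in any tumor.

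Among goblet and gastric mucous cell genes, 4 of 12 tested were higher and 1 lower in ICC than in p53LKO HCC, beside 13.1% and 15.2% of all genes, and the 5 called became 3 without the ICC of mouse 3733. Fcgbp, which encodes a protein bound to gel mucins, was 4.43 ± 1.16 in ICC and -4.64 ± 0.86 in p53LKO HCC. It was well above background in 1 of 5 p53LKO HCC and entered that comparison through the ICC. It was at least 451-fold higher in ICC than in p53f/f HCC (6.55 on the log2 scale after normexp correction). Against p53LKO HCC, Anxa10, a gastric annexin, was at least 3.75-fold higher in ICC, and the transcription factor gene Klf4 2.66-fold higher (limma adjusted p = 0.0032 and 0.020). Klf4 fell short of 2-fold without the HCC of mouse 3976 (difference 0.95). Capn9, a gastric calpain, was at least 1.12-fold lower (limma adjusted p = 0.0015). Spdef, the regulator of goblet cell differentiation, differed by -2.40 (limma adjusted p = 0.056), and Agr3, Atoh1, Retnlb, Gkn1, Gkn2, Cldn18 and Cdx2 were not well above background in any tumor.

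Of the 20 enzymes of mucin O-glycosylation tested, 6 were higher and 4 lower in ICC than in p53LKO HCC, beside 13.1% and 15.2% of all genes. Galnt18, of the family of transferases that start the chain, was 10.8-fold higher, and Gcnt1, which makes the core branch, 9.78-fold higher (limma adjusted p = 3.8e-05 and 0.00020). The fucosyltransferase gene Fut2 was at least 2.85-fold higher (limma adjusted p = 0.0012), and the sialyltransferase gene St6galnac2 was 7.48-fold lower (limma adjusted p = 1.4e-05). The related St6galnac1 was 7.68-fold lower in p53LKO HCC than in p53f/f HCC and 3.72-fold higher in ICC than in p53LKO HCC (limma adjusted p = 0.00014 and 0.025). The list median was -0.25 beside -0.18 over all genes.

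The tumor labels were set against cell type markers. Of 10 bile duct markers tested, 4 were higher and 2 lower in ICC than in p53LKO HCC, beside 13.1% and 15.2% of all genes, shares that also hold for the 2 lists that follow: Epcam at least 78.2-fold, Krt19 25.4-fold and Spp1 26.5-fold higher, Krt7 also higher but measured in 1 of 5 HCC, and Cldn7 5.76-fold and Krt23 4.80-fold lower (limma adjusted p between 1.3e-05 and 0.0088). With the mouse as a block the Krt7 difference was 2.09 and no longer passed, and after normexp correction the Epcam difference was 4.55, below its bound. The summed level of 12 markers was 6.17 to 7.22 in ICC, 4.47 to 5.26 in p53LKO HCC and 3.14 to 5.18 in p53f/f HCC. Of 14 hepatocyte markers, 8 were lower in ICC than in p53LKO HCC (5 without the HCC of mouse 3733, and 2 with the row as a block) and all 14 were well above background in at least 3 ICC, with summed levels of 8.68 to 10.79, 11.11 to 11.49 and 11.55 to 12.27 in ICC, p53LKO HCC and p53f/f HCC. Of 8 fibroblast markers, 6 were higher in ICC than in p53LKO HCC, with summed levels of 8.95 to 9.78 against 6.24 to 7.99. Between ICC and HCC these sums moved with the Gp2, Muc13 and Tff3 levels, and their part in them was not tested. Among the p53LKO HCC, the tumor of mouse 3976 had the highest bile duct sum, 5.26, and the lowest Muc13 level, -2.30. The tumor of mouse 3975 had the next highest bile duct sum, 5.08, and a Muc13 level of 4.15. The hepatocyte sums kept to their narrow range while Tff3 ran from 1.28 to 7.99, lowest on the lower-row arrays. The part of cell content in these levels within the group was not tested either. The probe named Trp53 lay between -1.27 and -0.68 in p53f/f HCC and between -4.19 and -2.31 in the 10 p53LKO tumors, but the array places this probe on chromosome 17 (mm9), whereas RefSeq has Trp53 on chromosome 11. Whether the probe reads Trp53 was not tested, so it is no check of the genotype labels.

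The genes whose levels ran closest to each member over the 15 tumors were sought among 17271 genes. For Gp2 they were A230065H16Rik (Pearson r = 0.990), Rasgef1a (0.986) and Bst1 (0.986), each high in the ICC and low in both HCC groups. Bst1, a surface enzyme that, like Gp2, is anchored by glycosylphosphatidylinositol, was 4.55 ± 1.06 in ICC and -2.27 ± 1.00 in p53LKO HCC. For Muc13 they were P2rx5 (0.948), Ace (0.942) and Fam83e (0.938), and for Muc4 Pmaip1 (0.866), Ccdc109b (0.866) and Gpr34 (0.865). For Muc20 they were C920008N22Rik (0.978), Krtap5-1 (0.972) and Noc3l (0.971). For the trefoil genes, Tff1 ran closest to Nup62cl (0.841), D15Ertd621e (0.814) and Ap1g2 (0.776), Tff2 to Ubr2 (0.879), Sugp2 (0.878) and Pigg (0.869), and Tff3 to Gm34066 (0.929), LOC432842 (0.925) and Ndufa1 (0.924). These correlations are descriptive, since tumors of 1 group and of 1 mouse are not independent points and all genes that separate ICC from HCC score high.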

How the data were processed

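RNA of 15 tumors, 5 in each of 3 groups, was labelled with Cy3 and hybridised to 1-colour Agilent mouse arrays, 1 tumor per array, on 2 slides. Groups and mice were taken from the labels. The deposited scanner files hold a processed signal intensity per spot, which the authors obtained with Agilent Feature Extraction 10.7.3.1 after subtraction of the background, and per the file headers probe positions refer to mm9. The deposited table holds log2 values that the authors had shifted to the 75th percentile and centred per probe. Set against the scanner intensities, its columns were rebuilt with r of at least 0.99989, HCC columns centred on the HCC arrays and ICC columns on the p53LKO arrays. Their medians ran from -0.33 to 0.35, and the table served as an alternative for the HCC comparison only.

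Here 62976 spots per array were read, control spots and outlier-marked spots were left out, spots of a probe were averaged, and log2 intensity was taken relative to the 75th percentile of the array. No spot was saturated. Between 55.1% and 70.1% of probes were well above background on p53f/f HCC arrays, 37.0% to 62.1% on p53LKO HCC arrays and 42.5% to 47.0% on ICC arrays, and the number of arrays limits the precision. Each comparison was fitted on its own 10 arrays with limma 3.58.1 in R 4.3.3, over probes well above background on at least 3 of them, and called at a Benjamini-Hochberg adjusted p below 0.05 and a change above 2-fold. Where a gene had several probes, that with the highest mean signal stood for it. Where a group had no array well above background, a bound against the dimmest probe well above background on each array takes the place of a fold, where it exceeds 1. As replicates are tumors, of which some share a mouse, p-values measure the spread between these tumors.

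The members and gene lists were chosen with earlier results of these data known. Genes named beside the members came from the up to 4 per list and comparison with the largest change among those called, of which not all are named, the 2 nearest tested neighbours on each side of a member, and the 3 genes most correlated with a member. Genes of the lists that were not detected, and Oit3, Spdef, Cldn7, Krt23 and Trp53, were named after their values were seen. HCC and ICC of the same mouse were paired by animal. Across probes, r between the deviations of such a pair, each taken from its own group mean, was -0.14 to 0.07 over the 4 mice, against -0.26 to 0.28 for other pairs. Alternatives covered background correction, scaling, filters, slide, row and mouse as blocks, each tumor left out, all arrays in 1 model and the methods' t-test. Promoters are from RefSeq (GRCm38.p6), where 6 of the 9 genes matched.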

Additional observations from a re-analysis of the deposited data

Results flagged for a closer look

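In the p53f/f HCC group, Muc1 was -2.79 on the log2 scale in tumor 2 of mouse 3717, against -5.51 to -4.73 in the other 4 tumors of the group. That tumor stood apart by the gap to its neighbour, 0.715 of the whole range of the group, where Dixon's limit for 5 samples is 0.71, and it was the one p53f/f HCC in which Muc1 was well above background, so the range among the others is one of background readings. It was also the one p53f/f HCC on slide 2 and had the highest share of probes well above background, 70.1%. In all, 27 sets of 5 tumors were examined, of which chance marks about 1 in 20. The other tumor of the same mouse had a Muc1 level of -5.02. The summed level of the bile duct markers in tumor 2, 5.18, was the highest of the group. It was 4.77 to 5.12 in 3 of the others and 3.14 in tumor 1 of the same mouse. Both bile duct markers plotted above were highest in tumor 2. Krt19 was 0.88 there, against -4.47 to -2.31 in the other p53f/f HCC. Epcam was -1.27 there, against background readings of -6.50 to -5.05. The part of bile duct content in the Muc1 level was not tested.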

How the results depend on the processing

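No called difference of the members changed direction under the alternatives run. Probes called between p53LKO HCC and p53f/f HCC numbered 7088, and 2890 after normexp background correction and 1848 among probes detected on every array. Between ICC and p53LKO HCC they numbered 8615, and 5615 and 4331 under the same settings. Between ICC and p53f/f HCC they numbered 6937, and 3748 and 3750 under those settings, 19132 with no filter and 3701 with slide as a block.

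Of the genes described, 1 (Gp2) was called higher in p53LKO HCC than in p53f/f HCC. The number was 0 after normexp correction, with scaling to probes detected on all arrays (where 1, Muc20, was lower), with no filter, among probes detected on every array, with slide as a block, with the mean of the tumors of mouse 3717, with the methods' t-test and with the mean over probes. It was 2 (Gp2 and Muc13) with row as a block and, in an alternative chosen after seeing the data, without the 2 lower-row p53LKO HCC; the Muc13 difference was -0.83 in slide 1 and 4.30 in slide 2. Leaving out each tumor gave 0 to 1. Among probes detected on every array, and without p53LKO mouse 3731, 3733 or 3975, the Gp2 probe was not fitted. In ICC, the 3 genes higher became 1 (Muc13) against each HCC group among probes detected on every array, since Gp2 and Muc4 were not. Against p53LKO HCC they became 2, without Muc13, with no filter, with the methods' t-test and without the 2 lower-row HCC, 2 to 3 on leaving out each tumor, and 4 with row as a block (Tff1, at background) and with scaling to probes detected on all arrays (Muc20). Against p53f/f HCC they became 4 with no filter (Agr2). Between ICC and p53LKO HCC, counts of list genes called also moved. The 8 hepatocyte markers became 2 to 5 with quantile normalization, scaling to probes detected on all arrays, row as a block and the methods' t-test. The 3 leukocyte markers became 1 with row as a block and 5 with that scaling. Among probes detected on every array, 1 acinar, 1 leukocyte, 1 goblet and 0 zona pellucida genes were called, and after normexp correction 3 goblet genes. Tff3 was 1 gene lower in ICC than in p53LKO HCC and the count became 0 with row as a block, with the mouse as a replicate block and with the methods' t-test. Where the settings themselves do not show it, the cause was not tested.

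With the mouse as a replicate block, 7258 probes were called between ICC and p53LKO HCC, and the paired fit changed no other call among the members. Scaling to probes detected on all arrays moved the median of all probes by -0.25, 0.37 and 0.12 in the 3 comparisons and the split of calls from 1314 higher and 5774 lower to 630 and 7944, from 4225 and 4390 to 6241 and 2251, and from 2652 and 4285 to 3028 and 3208. Muc1, Agr2, Tff1 and, in HCC, Gp2 lay near background, so small differences there were not measurable.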
